A study of Mus musculus with 6 samples.

Results

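The genes followed here were chosen by name: 9 transcription factors that set or hold cell identity in the developing eye, among 19938 genes to which at least 1 probe set could be given without ambiguity. They are *Pax6*, *Pax2*, *Otx1*, *Otx2*, *Sox9*, *Lhx2*, *Six3*, *Six6* and *Rax*. All 9 members were measured, each by 1 probe set. Mouse Gene 1.0 ST microarrays (Affymetrix) were hybridised with 300 ng of total RNA from retinal pigmented epithelium (RPE) dissected from E15.5 embryos on the C57BL/6J background. Mutants of the study were *Pax6*loxP/loxP;DctCre, in which Cre expressed under the promoter of the pigment cell gene *Dct* recombines floxed *Pax6*. Its controls were *Pax6*loxP/loxP littermates without Cre. There were 3 samples labelled mutant and 3 labelled control. Both groups therefore carried the floxed allele. Going by the labels, only the samples labelled mutant carried Cre, driven by a promoter that is active early in the RPE. Each sample was a tube of pooled RPE sorted by how pigmented it was, so the p-values below measure the spread between pools.

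The names of the groups came into question before any value could be read by direction. A second deposited table gives the authors' own mean log2 signal of each group for 100 entries past their threshold, of which 90 could be matched to the arrays. With the arrays grouped as labelled, 0 of the 90 matched both means within 0.1 log2. With the group names exchanged, 90 of 90 did. None of the 9 factors is among these entries. The samples are therefore called by their labels throughout (labelled mutant, labelled control), and every sign below follows the array labels and runs opposite to that of the study's own table.

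During eye development the anterior neural plate first forms an eye field, marked by *Rax*, *Six3*, *Six6*, *Lhx2* and *Pax6*. The optic vesicle that grows from it is then divided into RPE, neural retina and optic stalk. *Otx1*, *Otx2* and *Sox9* are kept in the RPE, *Rax*, *Six6*, *Six3* and *Lhx2* in progenitors of the neural retina, and *Pax2* in the optic stalk, while *Pax6* is made in both layers of the optic cup. These assignments are not exclusive. *Lhx2* and *Six3*, for example, also have roles outside the neural retina.

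For 3 of the members the study also designed primers for quantitative PCR, shown here because they define which parts of the transcripts its own assay reads. The *Pax6* pair spans exons 7 to 8. Each primer is written 5′ to 3′ in lower case.
*Pax6* sense: gacttcagtaccagggcaacc
*Pax6* antisense: ctttgcagcttccgcttcag
*Otx2* sense: tcatgagggaagaggtggcactg
*Otx2* antisense: ttggcggcacttagctcttcgattc
*Sox9* sense: gcgagcactctgggcaatc
*Sox9* antisense: ccctctcgcttcagatcaactttg

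Signals are given as log2 values, normalised across arrays by the authors, so that 1 unit is a 2-fold difference. The median signal of each array lay between 4.86 and 4.93 and any pair of arrays correlated at 0.992 to 0.995 over all probe sets. All 9 factors were above the median of their array on every array, though some only just. *Pax2* stood at percentiles 52.0 to 56.6 of signal, and the lowest arrays of *Rax* and *Six6* at 50.1 and 52.4. Being above the median was not a test of expression. In the test over 23410 named probe sets (limma with Benjamini-Hochberg adjustment), 85 probe sets passed an adjusted p of 0.05, a background of 0.363%, with 66 higher (0.282%) and 19 lower (0.0812%) in arrays labelled mutant. None of the 9 members passed. None reached an unadjusted limma p under 0.05 with a fold of at least 1.5, the cut-offs of the methods, either (0.427% of all probe sets). An unadjusted p under 0.05 was reached by 2 of the 9, *Pax6* and *Sox9*, against 6.07% of all probe sets tested and 2.66% in the same, lower direction. The same 2 members were the ones whose groups did not overlap, against 11.0% of all probe sets and 4.97% in the lower direction. Of the members, 8 had a lower mean and 1 a higher mean in arrays labelled mutant, where 50.0% of all probe sets had a lower one.

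**Figure D1:**
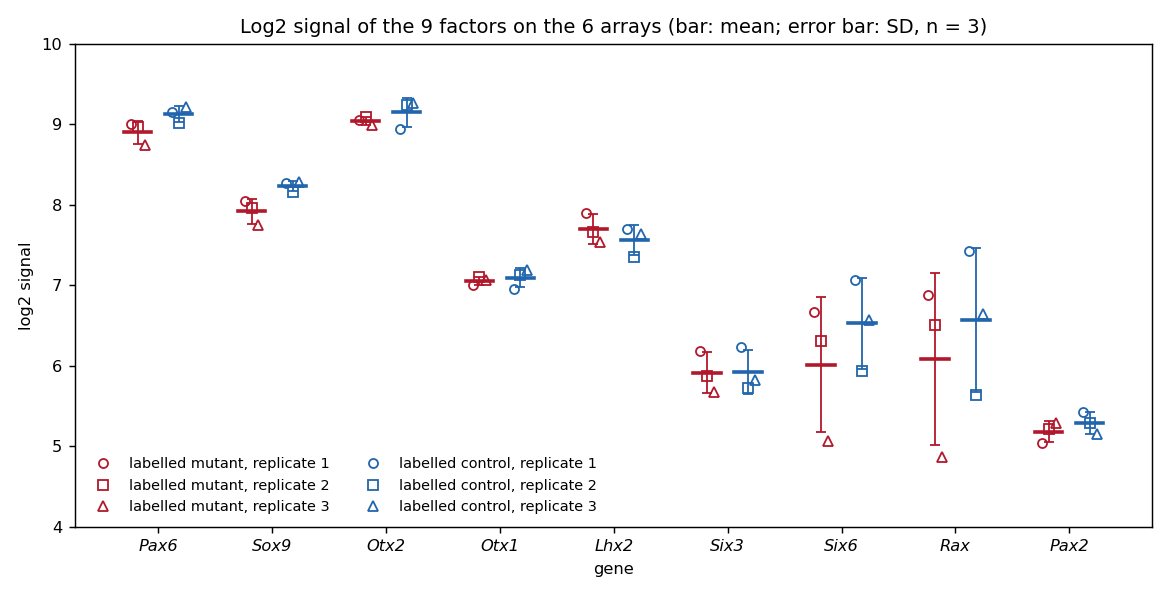
Log2 signal (y axis) of the 9 factors (x axis) on each array, with arrays labelled mutant in red left of arrays labelled control in blue, replicates told apart by symbol, the mean as a bar and the SD as error bar (n = 3). *Pax6* and *Sox9* were lower on all 3 arrays labelled mutant than on any array labelled control, while *Rax* and *Six6* spread over 2.55 and 2.0 log2 across the 6 arrays.

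*Pax6*, the targeted gene and a paired-box and homeodomain factor, gave 9.0, 8.97 and 8.74 (log2) in samples labelled mutant, against 9.15, 9.02 and 9.22 in samples labelled control. The groups did not overlap, although the first labelled mutant array lay close to the second labelled control array. The mean was 8.90 ± 0.14 under the label mutant and 9.13 ± 0.10 under the label control (SD, n = 3 each). The difference was -0.23 (SE 0.09, 95% confidence interval -0.43 to -0.03), which did not pass the test (limma, adjusted p = 0.73). The interval corresponds to a level in arrays labelled mutant of 0.74-fold to 0.98-fold that of arrays labelled control. Without the third labelled mutant array the difference was -0.15 (limma, adjusted p = 1.0). The recombined allele lacks the part that encodes the paired domain, and probes outside that part check nothing about recombination. Whether this probe set reads the deleted exons was not examined, so the group labels could not be checked from *Pax6*. In pooled tissue a lower signal can come from fewer cells of a type or from less RNA per cell, which cannot be told apart.

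*Sox9*, an HMG-box factor that acts with *Otx2* on visual cycle genes in RPE, followed *Pax6* array by array. Its log2 signal was 8.05, 7.96 and 7.75 on arrays labelled mutant, against 8.27, 8.16 and 8.28 on arrays labelled control. Every labelled mutant array was below every labelled control array, and the third was the lowest, as for *Pax6*. The mean was 7.92 ± 0.15 under the label mutant and 8.24 ± 0.07 under the label control (SD, n = 3 each), a difference of -0.32 (SE 0.08, 95% confidence interval -0.51 to -0.12, limma, adjusted p = 0.40). The 6 arrays stood in the same order for *Sox9* as for *Pax6*, with Pearson's r = 0.97 over 6 arrays, given as a description because the genes share their arrays and the group difference enters r.

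*Otx2*, a homeodomain factor required for RPE fate, had log2 signals of 9.05, 9.09 and 8.99 on arrays labelled mutant, against 8.94, 9.24 and 9.27 on arrays labelled control. The groups overlapped, because the first labelled control array was the lowest of all 6. The difference was -0.10 (SE 0.09, 95% confidence interval -0.31 to 0.11, limma, adjusted p = 0.98). *Otx1*, its close relative, gave 7.0, 7.10 and 7.07 on arrays labelled mutant, against 6.96, 7.13 and 7.19 on arrays labelled control. It was the steadiest member, with a range of 0.23 over all 6 arrays and a difference of -0.04 (SE 0.07, 95% confidence interval -0.20 to 0.13, limma, adjusted p = 0.99). The first labelled control array was the lowest for both *Otx* genes, and their r over the 6 arrays was 0.89. Without that array the *Otx2* difference was -0.21 (SE 0.06, limma, adjusted p = 0.54).

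*Pax2* is the paired-box factor of the optic stalk. Its log2 signal was 5.04, 5.22 and 5.29 on arrays labelled mutant, against 5.43, 5.29 and 5.15 on arrays labelled control. The groups overlapped, with a difference of -0.11 (SE 0.09, 95% confidence interval -0.32 to 0.11, limma, adjusted p = 0.98). These signals were close to the array medians of 4.86 to 4.93, and whether *Pax2* was above background was not tested.

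**Figure D2:**
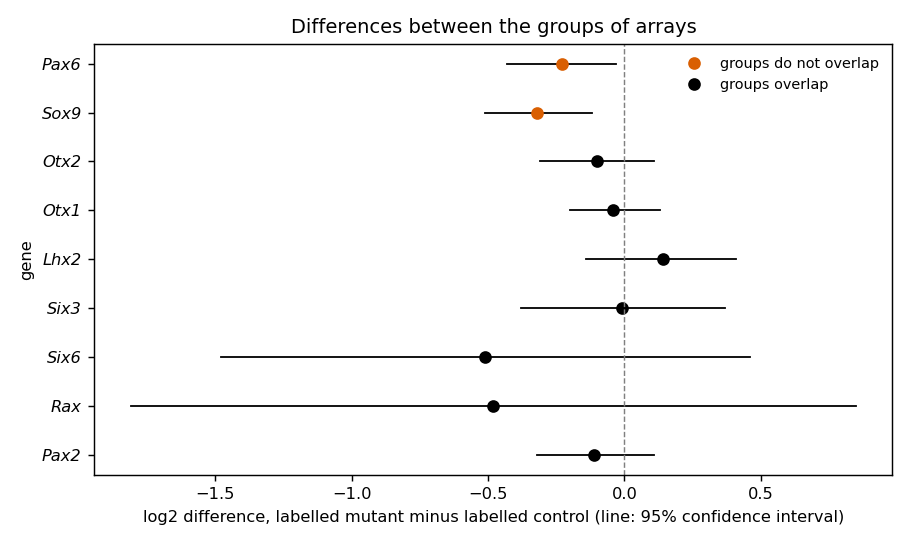
Difference in log2 signal (x axis), labelled mutant minus labelled control, for each factor (y axis), with its 95% confidence interval as a line and orange points where the groups did not overlap. Intervals for *Pax6* and *Sox9* lay below 0 before adjustment for multiple tests, and those of *Six6* and *Rax* were the widest, at -1.48 to 0.46 and -1.81 to 0.85.

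Of the neural retina factors, *Rax* and *Six6* behaved otherwise. *Rax*, a homeobox factor of the eye field and of retinal progenitors, had log2 signals of 6.88, 6.51 and 4.87 on arrays labelled mutant, against 7.43, 5.64 and 6.64 on arrays labelled control. High and low arrays occurred under both labels, and the highest exceeded the lowest by 2.55 log2, a 5.87-fold range. The mean was 6.09 ± 1.07 under the label mutant and 6.57 ± 0.89 under the label control (SD, n = 3 each), and the difference of -0.48 (SE 0.58, 95% confidence interval -1.81 to 0.85, limma, adjusted p = 0.99) was smaller than either SD. Without the third labelled mutant array it was 0.12.

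*Six6*, a homeodomain factor of the sine oculis family that keeps retinal progenitors dividing, repeated this pattern. Its log2 signal was 6.67, 6.31 and 5.07 on arrays labelled mutant, against 7.07, 5.94 and 6.57 on arrays labelled control. The range was 2.0 log2, or 3.99-fold, and the arrays ran in the same order as for *Rax*: labelled control 1, labelled mutant 1, labelled control 3, labelled mutant 2, labelled control 2 and labelled mutant 3. The difference was -0.51 (SE 0.42, 95% confidence interval -1.48 to 0.46, limma, adjusted p = 0.98).

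*Six3*, the closest relative of *Six6*, gave 6.19, 5.88 and 5.68 on arrays labelled mutant, against 6.23, 5.72 and 5.82 on arrays labelled control. The mean was 5.92 ± 0.26 under the label mutant and 5.93 ± 0.27 under the label control (SD, n = 3 each), a difference of -0.01 (SE 0.16, 95% confidence interval -0.38 to 0.37, limma, adjusted p = 1.0). *Lhx2*, a LIM-homeodomain factor needed to specify the optic cup, was the single member with a higher mean in arrays labelled mutant. It had 7.90, 7.66 and 7.54 on arrays labelled mutant, against 7.70, 7.35 and 7.64 on arrays labelled control, a difference of 0.14 (SE 0.12, 95% confidence interval -0.14 to 0.41, limma, adjusted p = 0.98). *Six3* and *Lhx2* varied less than *Rax* and *Six6*, with ranges of 0.56 and 0.55 over the 6 arrays, close to the 0.53 of *Sox9*.

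Spread within a label was largest in the neural retina factors, and above all in *Rax* and *Six6*. The SD within groups was 0.99 for *Rax* and 0.72 for *Six6*, at percentiles 99.8 and 99.7 of all probe sets tested, whose median was 0.09. *Six3* stood at percentile 97.5 and *Lhx2* at 91.9. *Pax6*, *Sox9*, *Otx2*, *Otx1* and *Pax2* lay between percentiles 51.2 and 78.6.

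**Figure D3:**
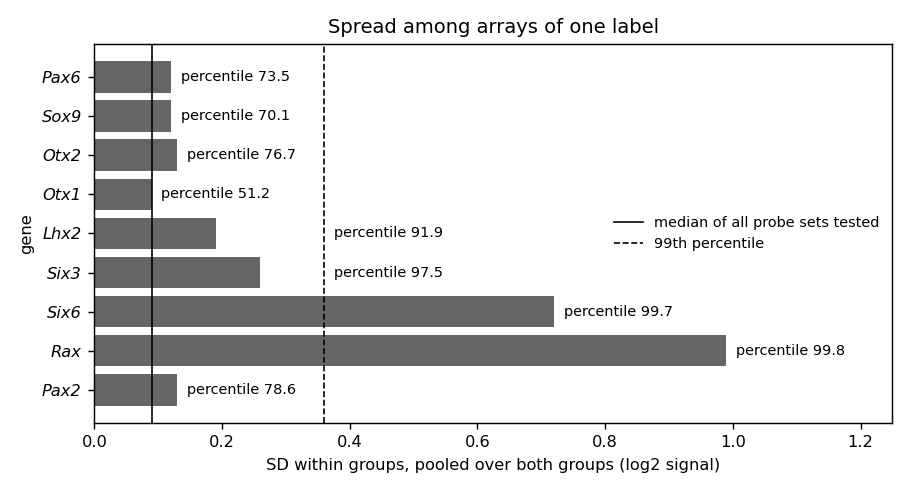
SD of log2 signal within groups, pooled over both labels (x axis), for each factor (y axis), with the median of all probe sets tested (0.09) and their 99th percentile (0.36) as vertical lines. Only *Six6* and *Rax* of the 9 factors exceeded the 99th percentile.

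Markers of the neural retina moved with *Rax* and *Six6*. The mean log2 signal of 6 measured retinal progenitor markers (of 8 listed) was 8.57, 8.17 and 7.14 on arrays labelled mutant, against 8.77, 7.49 and 8.20 on arrays labelled control. These 6 values run in the same order as *Rax* and *Six6*. Over the 6 arrays Pearson's r with this mean was 0.99 for *Rax*, 0.96 for *Six6*, 0.92 for *Six3*, 0.76 for *Lhx2*, 0.69 for *Pax6* and 0.61 for *Sox9*, and below 0 for *Otx1*, *Otx2* and *Pax2*. The r values are descriptions over 6 arrays that all the genes share. For each log2 of the marker mean, *Rax* changed by 1.45 log2 and *Six6* by 1.07. The change was 0.35 for *Six3* and 0.22 for *Lhx2*, nearer to the 0.20 of *Sox9* and 0.18 of *Pax6*. The 9 measured retinal neuron markers gave means of 7.15, 6.74 and 5.91 on arrays labelled mutant, against 7.43, 5.91 and 6.82 on arrays labelled control. None of the 6 progenitor or 9 neuron markers passed the test. Within the progenitor list the WNT modulator *Sfrp2* did not follow: it kept to a range of 0.24, against 2.46 for *Sox2*, a progenitor factor. The exact array order of *Rax* was found for 132 of the 19938 genes. It was kept by 2 of 8 other neural layer factors, *Sox2* and the neurogenic factor *Neurod1*. Of the markers, 2 of 6 for progenitors, 4 of 9 for neurons and 2 of 6 for photoreceptor precursors kept it. So did 1 of 8 other pigmented layer factors and 1 of 8 dorsoventral and margin factors. Some lists share genes, and *Sox2* is counted both as a neural layer factor and as a progenitor marker. The part of neural retina RNA in the values of *Rax*, *Six6*, *Six3*, *Lhx2*, *Pax6* and *Sox9* was not tested. Labelled control 1 and labelled mutant 3, at both ends of the *Rax* order, were also left out, a choice made after seeing the data. The *Pax6* difference was then -0.14 and that of *Sox9* -0.22, while *Rax* stood at 0.55 and *Six6* at 0.24. Leaving out their highest labelled control and lowest labelled mutant array had to raise the *Rax* and *Six6* differences. Labelled mutant 3 was the lowest array for *Pax6* and *Sox9* too. No contrast between these members can therefore be read from this setting.

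**Figure D4:**
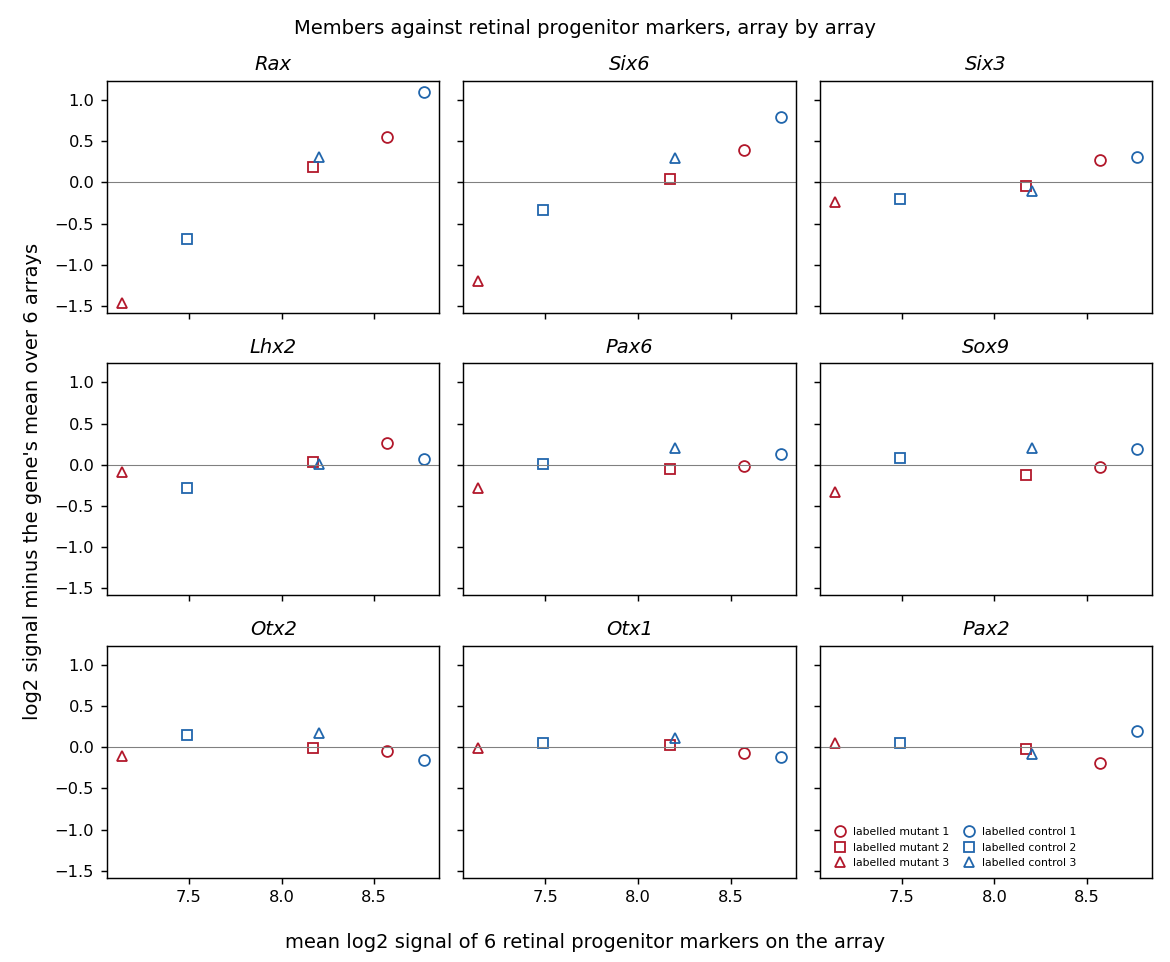
Log2 signal of each factor minus its mean over the 6 arrays (y axis) against the mean log2 signal of 6 retinal progenitor markers on that array (x axis), with arrays labelled mutant in red and labelled control in blue. *Rax* and *Six6* climb across the panel from labelled mutant 3 to labelled control 1, whereas *Otx2*, *Otx1* and *Pax2*, with ranges of 0.32, 0.23 and 0.39 over the 6 arrays, do not follow the markers.

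Since *Six6* and *Six3* are relatives that varied with the same markers, though by different amounts, their start regions are shown for comparison, from RefSeq on GRCm38.p6 (both on the + strand, 250 bases before to 50 bases from the annotated start). Windows were found for 6 of the 9 members. Capitals mark the longest word the 2 windows have in common on the same strand, TTGATTGGCAG (11 letters).
*Six6*, chr12:72939632-72939931: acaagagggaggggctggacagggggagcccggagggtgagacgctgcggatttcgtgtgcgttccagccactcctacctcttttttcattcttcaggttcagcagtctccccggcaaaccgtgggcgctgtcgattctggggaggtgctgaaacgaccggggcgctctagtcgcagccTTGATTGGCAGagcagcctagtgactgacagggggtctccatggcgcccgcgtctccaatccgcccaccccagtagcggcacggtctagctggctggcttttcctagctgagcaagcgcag
*Six3*, chr17:85620584-85620883: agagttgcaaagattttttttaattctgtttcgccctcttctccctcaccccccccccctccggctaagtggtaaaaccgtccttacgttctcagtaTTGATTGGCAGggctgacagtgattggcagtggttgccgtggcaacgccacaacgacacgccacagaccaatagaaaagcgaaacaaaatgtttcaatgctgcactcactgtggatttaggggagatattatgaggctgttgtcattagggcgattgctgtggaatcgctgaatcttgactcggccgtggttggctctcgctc
The word begins 71 bases before the start of *Six6* and 153 bases before that of *Six3*, and with its reverse complement it occurs in 12 of 32817 mouse windows (0.0366%). It contains ATTGG, the reverse complement of the CCAAT box, which on either strand is in 37.4% of windows and occurs 2 times in the *Six6* window and 3 times in that of *Six3*. The word was taken from the sequences themselves, so its presence in both is no finding, and a match in letters is not a binding site.

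Genes known to act beside the members were set against the same test. Among 8 other transcription factors of the pigmented layer, 1 fell, 0 rose and 7 did not pass. The median difference of the 8 was -0.13 against -0.001 over all genes, with 6 below 0 and 2 above it. The one that fell was *Tbx2*, a T-box factor of the dorsal eye, with 7.33, 7.21 and 7.24 on arrays labelled mutant, against 7.83, 7.84 and 7.80 on arrays labelled control (difference -0.56, SE 0.06, limma, adjusted p = 0.0076). None of 8 dorsoventral and margin factors passed. Their median was -0.22, and the nearest to the threshold were *Tbx5*, which marks the dorsal retina, at -0.55 (SE 0.09, limma, adjusted p = 0.063), and *Msx2* at -0.86 (SE 0.16, limma, adjusted p = 0.13). Among 8 other neural layer factors none passed, and their median SD within groups was 0.58.

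The gene families of the members did not pass the test: 0 of 7 other *Pax* genes, 0 of 3 other measured relatives of *Six3*, 0 of 7 other *Lhx* genes and 0 of 3 relatives of *Otx* and *Sox9* passed, with medians between -0.15 and -0.02. Mean log2 signals over the arrays were 4.54 to 4.64 for the other *Pax* genes and 4.19 to 4.41 for the other *Lhx* genes. Both lay below the lowest array median of 4.86, so the lack of a difference there says little. The closest by p were *Pax3* (0.13, limma, adjusted p = 0.86), *Six2* (-0.09, limma, adjusted p = 0.99), *Lhx6* (-0.19, limma, adjusted p = 0.81) and *Sox10* (-0.16, limma, adjusted p = 0.87).

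Genes described elsewhere as targets of *Otx2*, *Sox9* or *Lhx2* in RPE moved both ways, with 2 of 11 higher, 1 lower and 8 not passing, and a median of 0.21. *Ttr*, the thyroxine and retinol carrier transthyretin, had 8.94, 8.90 and 9.02 on arrays labelled mutant, against 10.87, 10.91 and 11.40 on arrays labelled control (difference -2.10, SE 0.13, limma, adjusted p = 8.8e-04). *Rlbp1*, the visual cycle retinaldehyde-binding protein, had 8.33, 8.44 and 8.43 on arrays labelled mutant, against 7.16, 7.61 and 7.42 on arrays labelled control (difference 1.0, SE 0.11, limma, adjusted p = 0.01). *Tyrp1*, an enzyme of melanin synthesis, was higher by 0.94 in arrays labelled mutant (SE 0.12, limma, adjusted p = 0.02). The signs of all 3 turn round if the group names of the arrays are exchanged. The 3 differences, at -2.10, 1.0 and 0.94, stood beside -0.10 for *Otx2*, -0.32 for *Sox9* and 0.14 for *Lhx2*.

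The labelled tissue was set against 13 RPE markers. Of these, 8 were above the median of their array on every array, among them *Tyrp1*, *Rlbp1* and *Ttr*, and 4 were below it on every array: *Best1*, *Lrat*, *Rgr* and *Rpe65*, the isomerase of the visual cycle, named here after their values were seen. Signals of different probe sets are not on a common scale, so these counts only describe the arrays. Of the 13 markers 3 rose (*Rrh*, *Rlbp1* and *Tyrp1*), 1 fell (*Ttr*) and 9 did not pass. Their mean was 7.10, 7.17 and 7.19 on arrays labelled mutant, against 6.72, 6.89 and 7.02 on arrays labelled control, without overlap. Surface and corneal epithelium markers also differed, with 2 of 7 higher and means of 7.50 to 7.78 on arrays labelled mutant, against 6.77 to 7.11 on arrays labelled control. *Aldh3a1*, a corneal crystallin, was higher by 1.32 (SE 0.17, limma, adjusted p = 0.022), and *Dsg3*, a desmosomal cadherin, by 0.68 (SE 0.10, limma, adjusted p = 0.033). Corneal epithelium also makes *Pax6*, and its part in the *Pax6* values was not tested. Lens markers did not pass (0 of 7), with 6 above 0 and 1 below it. The 2 nearest by p went opposite ways, *Mip* at -0.42 (SE 0.10, limma, adjusted p = 0.31) and *Bfsp2* at 0.52 (SE 0.15, limma, adjusted p = 0.51). The crystallin *Cryaa*, chosen after its values were seen, had 8.05, 4.22 and 8.69 on arrays labelled mutant, against 5.87, 5.66 and 5.94 on arrays labelled control. Of the photoreceptor precursor (6), melanocyte (4), mesenchyme (8), endothelium (6) and macrophage (4) markers, 0 passed.

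The genes nearest to *Pax6* in pattern, by root mean square distance between log2 signals after each gene's mean was removed, over 6 arrays and 9968 genes, were *Tspyl4* (distance 0.040), *Fgd4* (0.047), which encodes a guanine nucleotide exchange factor, and *Nnat* (0.047), neuronatin. *Nnat* had 9.64, 9.56 and 9.35 on arrays labelled mutant, against 9.87, 9.64 and 9.80 on arrays labelled control, and its difference was -0.25 (limma, adjusted p = 0.72). *Sox9* lay at 0.05 from *Pax6*, almost as near as these 3.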

How the data were processed

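Log2 signals of 35556 probe sets on 6 arrays (3 per group) were taken as deposited by the authors, who had summarized and normalized them. Partek is named in the submitters' processing notes, and neither its version nor how background and probes were handled is given in the sources used here. Precision is limited by the number of arrays. The deposited table of log2 group means served only to check directions. Its p-values, ratios and fold changes are the authors' comparison and were not used. Platform annotation gave 21789 probe sets 1 symbol, 1621 several and 12146 none here. The 23410 named probe sets were tested with limma 3.58.1 (R 4.3.3) on the log2 scale, labelled mutant minus labelled control, with Benjamini-Hochberg adjustment, after a check on simulated data. A gene was represented by its brightest probe set of a single symbol, and genome positions of probe sets were not used. Named genes were the members, up to 4 passing genes per list by p (or the 2 nearest), and the 3 genes nearest to *Pax6*. *Cryaa*, *Best1*, *Lrat*, *Rgr* and *Rpe65* were named outside this rule, after their values were seen. Members and lists were chosen with earlier results of these data known. Alternatives changed the probe sets tested, variance model, array weights, normalisation, probe set averaging and test, added a replicate block, and left out arrays. Deviations of same-numbered arrays correlated at 0.367 for number 1 but at -0.06 and 0.075 for the others. Labelled mutant 3 and labelled control 2 also reached 0.367. The numbers were therefore not taken as pairs, and the labels do not say whether same-numbered pools shared litters.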

Additional observations from a re-analysis of the deposited data

How the results depend on the processing

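No member passed an adjusted p of 0.05 under any of 15 alternatives (135 member and alternative pairs, lowest adjusted p 0.22, for *Sox9* with a trended robust variance). The sign of the difference was kept in 127 pairs and turned in 8. *Six3*, at -0.01, turned to 0.01 without labelled mutant 2, 0.11 without labelled mutant 3, 0.14 without labelled control 1 and 0.26 with labelled control 1 and labelled mutant 3 both left out. *Rax* turned to 0.12 without labelled mutant 3 and 0.55 with both arrays left out, where *Six6* stood at 0.24. *Otx1* turned to 0.01 without labelled control 3. With single arrays left out, differences ranged from -0.29 to -0.15 for *Pax6*, -0.38 to -0.23 for *Sox9*, -0.21 to -0.04 for *Otx2*, -0.10 to 0.01 for *Otx1*, -0.18 to -0.04 for *Pax2*, 0.03 to 0.22 for *Lhx2*, -0.15 to 0.14 for *Six3*, -0.83 to -0.03 for *Six6* and -0.95 to 0.12 for *Rax*. The count of probe sets that passed was 85, and 41 with all probe sets tested. It was 38 with both arrays left out and 26 to 85 with single arrays left out. With Student's t-test per probe set, the test stated in the methods, in place of limma's, it was 0 (lowest adjusted p 0.13). That t-test gave 1319 probe sets at an unadjusted p under 0.05, 93 of them also with a fold of at least 1.5. The replicate block gave 77 and again 0 members, and same-numbered deviations correlated at 0.367, -0.06 and 0.075. The cause of these changes was not tested. Both arrays were chosen after seeing the data, and leaving out both had to raise the differences of *Rax*, *Six6* and *Six3*. With 3 arrays per label, the intervals of *Rax* and *Six6* include differences of over 1 log2 downwards.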
